A study of Mus musculus with 6 samples.

Results

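Cholinergic genes are those that make, store, release, break down and sense acetylcholine, the transmitter by which motor neurons drive muscle. The set held 10 genes, namely Chat, Slc18a3, Slc10a4, Slc5a7, Ache, Bche, Prima1, Chrna4, Chrnb2 and Chrm2, and it took in every probe set that the platform annotation pairs with exactly 1 of these symbols. This gave 15 probe sets for 8 genes, of 45101 probe sets in the table. Slc10a4, which encodes a transporter-like protein of cholinergic synaptic vesicles, shares its probe set with the pseudogene Slc10a4l, and Chrm2, the M2 muscarinic receptor, is listed for none, so neither has a value here. A filter on dim signals, set on the mean over all 6 arrays, kept 10 of the 15 probe sets for testing, and these covered all 8 genes.

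Motor neuron RNA of the mouse brainstem was measured on Affymetrix arrays in 3 SOD1 samples and 3 wild type (WT) samples. The label SOD1 stands for the superoxide dismutase 1 gene, an enzyme gene mutated in some inherited forms of the motor neuron disease ALS. The sources used here do not give the altered allele, the strain, the age, the way the motor neurons were collected or any pooling. All samples went through 2 rounds of T7-based RNA amplification. No label names the animals behind the samples, so p-values reflect the scatter of these 6 arrays, part of it perhaps technical.

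In a motor neuron, choline acetyltransferase (Chat) joins choline to an acetyl group in the cytosol, and the vesicular acetylcholine transporter (Slc18a3) loads the product into synaptic vesicles. Released acetylcholine is split by acetylcholinesterase (Ache), which in brain is tethered to the cell surface by the membrane anchor PRiMA (Prima1), and the freed choline is taken back up by the high-affinity choline transporter (Slc5a7). Nicotinic receptors are ion channels built of subunits, of which Chrna4 and Chrnb2 form a common brain type, and muscarinic receptors act through G proteins.

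Median signals were 267 to 300.3 on the SOD1 arrays and 301.3 to 315 on the WT arrays, and precision is set by how many arrays there were. Of the motor neuron markers, all 18 with a probe set exceeded background on at least 1 array. Their summed signal was 659080 to 725870 in SOD1 and 672940 to 745130 in WT. Marker sums here and below take 1 probe set per gene, that with the highest mean, whether or not it was tested. The markers of other cell types with a probe set also exceeded background on at least 1 array, so this does not check the labelled cell type. Xist differed within the SOD1 group, at 12.83, 12.91 and 5.71 on SOD1 replicates 1, 2 and 3, against 7.07, 6.60 and 5.76 on WT replicates 1, 2 and 3 (mean of its probe sets, log2 signal). Sex may thus differ between the groups, and genotype and sex are partly confounded. Differences with a term for Xist are therefore given for Chat, Slc5a7, Ache, Prima1, Bche and Chrna4. Of the 4 Sod1 probe sets tested, 0 passed (limma, lowest adjusted p = 0.257), and a mouse probe set need not read a human transcript, so this does not check the labels. Levels below are log2(signal + 16) after quantile normalisation, differences are SOD1 minus WT on that scale with the standard error of the fit, and n is 3 arrays per group.

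Acetylcholinesterase, its anchor and the vesicular transporter gave lower signals on every SOD1 array than on any WT array, at about 44% to 65% of the WT level. None of them passed the test across all probe sets. Choline acetyltransferase, the choline transporter, butyrylcholinesterase and the nicotinic subunits had SOD1 and WT values that overlapped. Of the 10 cholinergic probe sets tested, 0 were called lower and 0 higher at an adjusted p of 0.05 (limma), where 0.122% and 0.0629% of all 27022 probe sets were. At an unadjusted p under 0.05, 4 of the 10 were lower, where 7.58% of all probe sets were, and 0 were higher, where 7.09% were. The same 4 had all SOD1 values below all WT values, an arrangement found for 9.81% of all probe sets. Over all 10 cholinergic probe sets the median difference was -0.33, against -0.01 over all 27022. The 4 are not 4 separate genes, since both Prima1 probe sets are among them. The members were also chosen with earlier results of these data known, so these shares only describe the set.

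**Figure D1:**
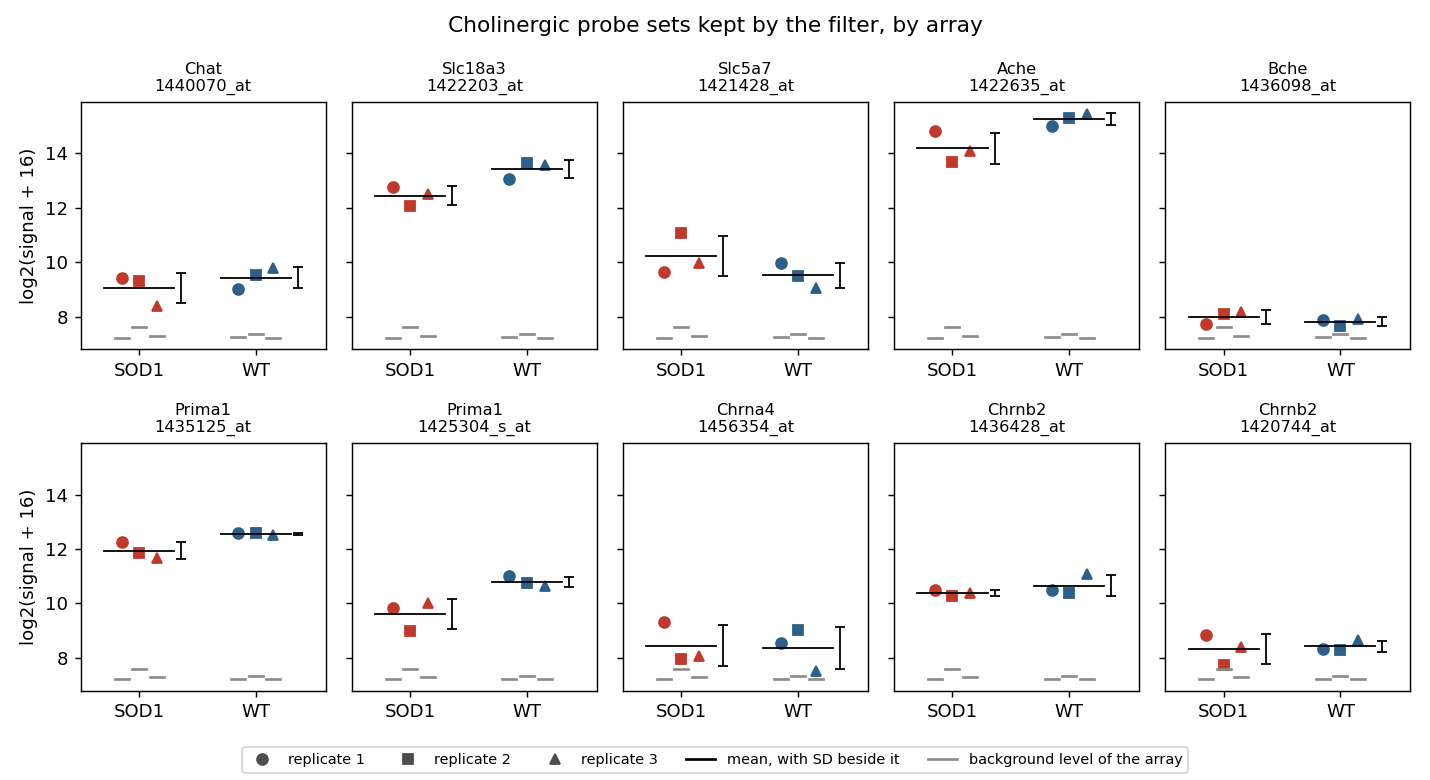
Level of each tested cholinergic probe set on each array, as log2(signal + 16), with SOD1 left and WT right in each panel, a marker per replicate, the group mean as a line with its SD beside it, and each array's background level in grey. Ache, Slc18a3 and both Prima1 probe sets have all SOD1 markers below all WT markers, and the other 6 overlap.

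The vesicular acetylcholine transporter read lower in SOD1 by a factor close to 2. Slc18a3 (probe set 1422203_at) read 12.75, 12.06 and 12.50 on SOD1 replicates 1, 2 and 3, against 13.06, 13.66 and 13.58 on WT replicates 1, 2 and 3. The groups did not overlap, with the highest SOD1 and the lowest WT array lying close together. The means were 12.44 ± 0.35 in SOD1 and 13.43 ± 0.32 in WT (SD, n = 3 each), a difference of -0.996 ± 0.25 (95% interval -1.54 to -0.45), which put SOD1 at 50.1% of WT. It did not pass over all probe sets (limma, adjusted p = 0.131). Over the 17 alternatives, among them a term for Xist, the difference stayed between -1.18 and -0.81. In bulk RNA, fewer cells of a type and less RNA per cell cannot be told apart.

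Choline acetyltransferase, the enzyme that defines cholinergic neurons, was read by a single probe set of moderate signal. Chat (1440070_at) read 9.41, 9.30 and 8.40 on SOD1 replicates 1, 2 and 3, against 9.004, 9.51 and 9.78 on WT replicates 1, 2 and 3. SOD1 replicate 3 was the lowest of the 6 arrays, and the other SOD1 arrays lay within the WT range. The difference was -0.40 ± 0.43 (95% interval -1.33 to 0.54, limma, adjusted p = 0.706), an interval that holds both no difference and one as large as that of Slc18a3. It was -0.08 without SOD1 replicate 3, -0.22 without WT replicate 3, -0.61 without WT replicate 1 and -1.03 (adjusted p = 0.440) with a term for Xist, where SOD1 replicate 3 alone stands for the genotype.

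Chat and Slc18a3 form a single locus. In the RefSeq annotation of GRCm38.p6 the Slc18a3 gene lies inside the Chat gene on the same strand, and the annotated start sites are 1059 bases apart. Their promoters, 250 bases before to 50 after each start, are shown because the 2 genes of the locus gave different estimates here, and those of Ache and Prima1 because they read low together with Slc18a3. The windows are chr14:32465860-32466159 for Chat, chr14:32464801-32465100 for Slc18a3 and chr12:103242097-103242396 for Prima1, all on the minus strand, and chr5:137288004-137288303 for Ache on the plus strand. They run 5′ to 3′, and capitals mark matches on either strand to GGGCGG (the GC box), TGACG (the core of the cAMP response element), CAGCTG (an E-box), TAATTA (a homeodomain core) or TATAAA (the TATA box).
Chat: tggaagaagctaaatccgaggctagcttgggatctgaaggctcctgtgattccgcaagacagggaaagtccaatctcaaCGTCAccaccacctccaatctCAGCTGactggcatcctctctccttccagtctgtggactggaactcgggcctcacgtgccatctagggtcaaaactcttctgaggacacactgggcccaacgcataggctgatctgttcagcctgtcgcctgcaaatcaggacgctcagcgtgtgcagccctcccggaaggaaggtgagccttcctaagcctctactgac
Slc18a3: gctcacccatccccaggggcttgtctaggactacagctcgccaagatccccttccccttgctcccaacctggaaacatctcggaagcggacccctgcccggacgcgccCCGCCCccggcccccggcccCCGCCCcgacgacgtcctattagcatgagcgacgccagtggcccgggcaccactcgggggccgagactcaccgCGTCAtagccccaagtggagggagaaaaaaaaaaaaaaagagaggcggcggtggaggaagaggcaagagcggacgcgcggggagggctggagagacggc
Ache: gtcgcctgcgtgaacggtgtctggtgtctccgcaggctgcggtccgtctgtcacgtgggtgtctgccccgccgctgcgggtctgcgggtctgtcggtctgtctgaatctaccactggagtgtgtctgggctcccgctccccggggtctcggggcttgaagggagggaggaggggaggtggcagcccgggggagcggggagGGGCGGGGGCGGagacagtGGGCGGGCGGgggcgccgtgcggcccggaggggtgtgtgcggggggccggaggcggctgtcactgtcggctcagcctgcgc
Prima1: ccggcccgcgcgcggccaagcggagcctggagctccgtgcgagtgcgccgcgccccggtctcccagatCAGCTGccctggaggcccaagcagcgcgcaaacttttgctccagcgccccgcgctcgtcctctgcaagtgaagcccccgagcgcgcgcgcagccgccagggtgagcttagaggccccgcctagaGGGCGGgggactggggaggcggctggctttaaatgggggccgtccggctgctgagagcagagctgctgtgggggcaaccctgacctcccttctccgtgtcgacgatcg

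The Slc18a3 and Chat windows share 0 bases and differ in composition, with 67.0% and 55.7% G and C. GGGCGG was matched 2 times for Slc18a3, 4 times for Ache, where 1 pair of matches overlaps, 1 time for Prima1 and 0 times for Chat, and 35.7% of 32851 promoter windows hold it. In the windows not shown it was matched 4 times for Slc10a4, 3 for Chrna4, 2 for Bche and 1 each for Chrnb2 and Chrm2. For Slc5a7 it was matched 0 times. Its matches were thus not confined to the members that read low. TGACG was matched 1 time in each of the Slc18a3 and Chat windows (20.8% of windows hold it), and CAGCTG 1 time in each of the Chat and Prima1 windows (16.3%). TAATTA, held by 5.29% of windows, and TATAAA, held by 13.6%, had 0 matches in the 4 windows. The Ache and Prima1 windows had 74.0% and 71.7% G and C, above 95.2% and 92.6% of all windows. The Chrna4 window, not shown, had 74.3%. These matches describe letters only.

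The gap between Slc18a3 and Chat within an array was set against genotype, a comparison chosen after the values were seen. Slc18a3 minus Chat was 3.34, 2.76 and 4.10 on SOD1 replicates 1, 2 and 3, against 4.06, 4.14 and 3.80 on WT replicates 1, 2 and 3. The groups overlapped, and the mean was 0.60 lower in SOD1 (exact two-sided permutation p = 0.3, 0.3 after Benjamini-Hochberg adjustment over 3 such gaps, where 0.1 is the smallest p that 3 against 3 allows).

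The high-affinity choline transporter had the opposite sign. Slc5a7 (1421428_at) read 9.65, 11.07 and 9.97 on SOD1 replicates 1, 2 and 3, against 9.98, 9.49 and 9.07 on WT replicates 1, 2 and 3. SOD1 replicate 2 stood above the other 5 arrays, which overlapped. The difference was 0.72 ± 0.44 (95% interval -0.24 to 1.68, limma, adjusted p = 0.476), and it was 0.30 without SOD1 replicate 2 and 0.46 with a term for Xist. Slc18a3 minus Slc5a7 was 3.09, 0.99 and 2.53 on SOD1 replicates 1, 2 and 3, against 3.08, 4.16 and 4.51 on WT replicates 1, 2 and 3. SOD1 replicate 1 lay within the WT range for this gap (exact two-sided permutation p = 0.2, adjusted p = 0.3).

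**Figure D2:**
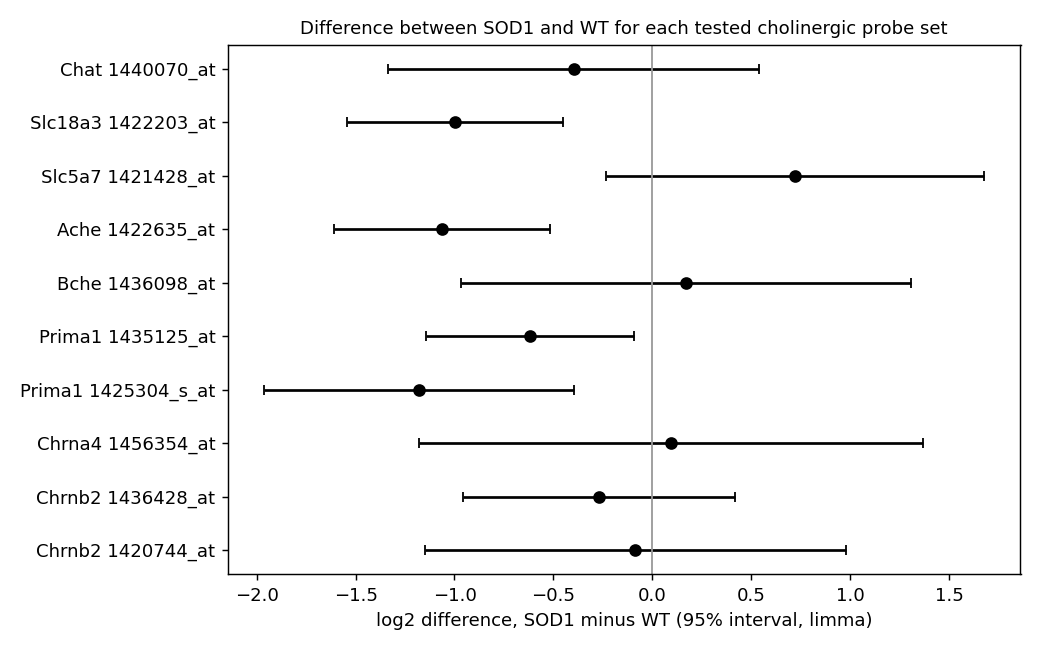
Difference between SOD1 and WT (horizontal axis, log2, SOD1 minus WT) for each tested cholinergic probe set, with the 95% interval from limma. The intervals of Ache, Slc18a3 and both Prima1 probe sets lie below 0 before any adjustment for the 27022 tests, and the other 6 cross it.

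Acetylcholinesterase had the smallest p of the set. Ache (1422635_at) read 14.81, 13.67 and 14.08 on SOD1 replicates 1, 2 and 3, against 15.00, 15.30 and 15.45 on WT replicates 1, 2 and 3. SOD1 replicate 1 lay just under the WT range and the other SOD1 arrays clearly below it. The means were 14.18 ± 0.58 in SOD1 and 15.25 ± 0.23 in WT (SD, n = 3 each), a difference of -1.06 ± 0.25 (95% interval -1.61 to -0.52), which put SOD1 at 47.8% of WT. This did not pass over all probe sets (limma, adjusted p = 0.117), where it ranked 288 of 27022 by p. Without SOD1 replicate 1, the SOD1 array nearest to WT, the difference was -1.37 and passed (limma, adjusted p = 0.0466). This was the only 1 of 17 alternatives in which Ache passed. Without SOD1 replicate 2 the difference was -0.80. With a term for Xist it was -1.17 (adjusted p = 0.196).

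Prima1, the anchor that holds acetylcholinesterase tetramers in neuronal membranes, was read by 2 probe sets that were both lower in SOD1. The brighter, 1435125_at, read 12.27, 11.86 and 11.67 on SOD1 replicates 1, 2 and 3, against 12.58, 12.57 and 12.51 on WT replicates 1, 2 and 3. The WT arrays were nearly equal, with an SD of 0.04 against 0.31 in SOD1. The difference was -0.62 ± 0.24 (limma, adjusted p = 0.266), or 65.1% of WT.

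The dimmer Prima1 probe set, 1425304_s_at, read 9.85, 9.003 and 10.03 on SOD1 replicates 1, 2 and 3, against 11.01, 10.76 and 10.65 on WT replicates 1, 2 and 3. Its difference was the largest in size among the 10 tested, at -1.18 ± 0.36 (limma, adjusted p = 0.174), or 44.2% of WT. Its suffix marks a probe set that may read more than 1 transcript. The probe sets differed from each other on the SOD1 arrays, the dimmer being lowest on replicate 2 and the brighter on replicate 3. With a term for Xist the differences were -0.78 for the dimmer and -0.89 for the brighter, so which of them was further from 0 depended on that term. The gap between them was -2.31 ± 0.62 in SOD1 and -1.75 ± 0.15 in WT (SD, n = 3 each, exact two-sided permutation p = 0.3, in a design that cannot go below 0.1).

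Butyrylcholinesterase, a relative of acetylcholinesterase made in the brain largely by glia, was near the background level. An array's background is the level below which 95% of its 27 bacterial control probe sets fell, and it lay between 7.21 and 7.61. The 1 Bche probe set tested, 1436098_at, read 7.72, 8.08 and 8.17 on SOD1 replicates 1, 2 and 3, against 7.90, 7.65 and 7.93 on WT replicates 1, 2 and 3. These overlapped (difference 0.17 ± 0.52, 95% interval -0.97 to 1.31, limma, adjusted p = 0.911). With a term for Xist the difference was 0.35.

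The other Bche probe sets were below the filter. For 1437863_at the SOD1 arrays read 7.53, 6.70 and 7.42 and the WT arrays 6.26, 5.05 and 5.19, with SOD1 replicate 2 and all 3 WT arrays at the background level. With no filter its difference was 1.72 ± 0.71 (limma, adjusted p = 0.384). For 1421218_at the SOD1 arrays read 6.97, 7.86 and 7.10 and the WT arrays 7.29, 7.02 and 7.71, and the groups overlapped. The probe sets of the gene thus gave 0.17, 1.72 and -0.03, and they do not settle a direction for Bche.

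Nicotinic subunits had low to moderate signals and no separation of the groups. For Chrnb2, the beta 2 subunit, the brightest probe set, 1436428_at, read 10.50, 10.27 and 10.39 on SOD1 replicates 1, 2 and 3, against 10.50, 10.39 and 11.08 on WT replicates 1, 2 and 3. WT replicate 3 stood above the other 5 arrays, and the difference was -0.27 ± 0.31 (95% interval -0.95 to 0.42, limma, adjusted p = 0.727). It was -0.06 without WT replicate 3. A second Chrnb2 probe set, 1420744_at, read 8.83, 7.75 and 8.42 in SOD1 and 8.34, 8.29 and 8.64 in WT, with a difference of -0.09 ± 0.48 (limma, adjusted p = 0.953).

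Chrna4, the alpha 4 subunit, was tested by 1 of its 3 probe sets. Probe set 1456354_at read 9.34, 7.97 and 8.06 on SOD1 replicates 1, 2 and 3, against 8.55, 9.03 and 7.50 on WT replicates 1, 2 and 3. Both groups spread over more than 1 log2 unit, and the difference of 0.09 ± 0.58 (limma, adjusted p = 0.958) had a 95% interval of -1.18 to 1.37. That interval holds both no difference and one as large as that of Ache.

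The 3 remaining nicotinic probe sets were too dim for the filter and reached only background on 3 to 4 of the 6 arrays. Their differences with no filter were -0.23 and 0.73 for Chrna4 and -0.26 for Chrnb2 (limma, lowest adjusted p = 0.794). The filter lay at 7.38 (mean log2 signal), between the Bche probe sets 1436098_at at 7.91 and 1421218_at at 7.32, with Chrna4 1421203_at at 7.35.

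The SOD1 arrays did not move together across the set. SOD1 replicate 2 was the lowest of the 6 arrays for 5 of the 10 tested probe sets, among them Ache and Slc18a3, and the highest for Slc5a7. SOD1 replicate 1 was the lowest for 0 and the highest for 2. WT replicate 3 was the highest for 3 and the lowest for 2. With each array left out in turn, the difference ranged from -1.37 to -0.80 for Ache, from -1.18 to -0.81 for Slc18a3, from -1.37 to -0.87 for the dimmer Prima1 probe set and from -0.79 to -0.48 for the brighter.

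Markers of other cells differed between the groups, and their part in these values was not tested. Among microglial markers, 3 of 16 probe sets rose (limma, adjusted p under 0.05, as for 0.0629% of all probe sets), and all 16 had a positive estimate. The summed signal of the list, with 1 probe set per gene, was 104800 to 182930 in SOD1 and 10112 to 42844 in WT. Among astrocyte markers 2 of 26 rose, with sums of 243800 to 249290 in SOD1 and 202950 to 210680 in WT. Among oligodendrocyte markers 0 of 22 passed, with sums of 242210 to 266970 in SOD1 and 187090 to 214410 in WT. Of these 22, 21 had a positive estimate, and 11 had all SOD1 above all WT values, as for 10.5% of all probe sets. Among endothelial and mural markers 2 of 16 fell, as for 0.122% of all probe sets, with sums of 7682 to 23411 in SOD1 and 31987 to 71782 in WT.

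Pan-neuronal markers had 0 of 17 probe sets past the threshold (limma), 13 of 17 with a negative estimate, and sums of 429030 to 511890 in SOD1 and 506140 to 566500 in WT. The lowest pan-neuronal sum was that of SOD1 replicate 2, which also had the lowest Ache and Slc18a3 but the highest Slc5a7. Its motor neuron sum was 709310, within the WT range. Sums add linear signals, so bright genes such as Nefl weigh most and a fall in dim genes hardly shows. The mean log2 level of the same motor neuron markers was 13.01 on SOD1 replicate 2, against 12.91 to 13.19 in WT. Whether the sums go together with Ache, Slc18a3 or Slc5a7 was not tested. Motor neuron markers, whose sums overlapped between the groups, had 0 of 26 probe sets past the threshold and a median difference of -0.02. Of these 26, 6 had all SOD1 values below all WT values, as for 9.81% of all probe sets, and 2 all above, as for 10.5%. Of the 17 pan-neuronal probe sets, 3 had all SOD1 values below and 0 all above. Lower SOD1 values without overlap were thus not particular to the cholinergic set. Markers of other neuron types had 0 of 10 past it, with sums of 5124 to 11833 in SOD1 and 3242 to 8284 in WT. None of these lists held a gene at background on all 6 arrays.

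The other genes of the pathway were taken as 5 lists. Of their 53 tested probe sets, 0 passed over all probe sets (limma), and 5 were higher and 4 lower at an unadjusted p under 0.05, against the shares of all probe sets given above. The receptor genes were mostly too dim to test. Of 13 further nicotinic genes with a probe set, 3 had one above the filter. Chrna7, the alpha 7 subunit, was at 11.40 in SOD1 and 11.34 in WT (difference 0.06 ± 0.36). Chrna1, the muscle alpha subunit, differed by -0.66 ± 0.79, with SOD1 replicate 2 at background. Chrna3, the alpha 3 subunit of autonomic ganglia, gave 1.70 ± 1.01 and 0.04 ± 0.88 with 2 probe sets. The first was at background on 2 WT arrays, the second on SOD1 replicate 3 and WT replicate 2. Of 3 other muscarinic genes with a probe set, 1 was tested, the M1 receptor Chrm1 (-0.04 ± 0.50).

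Proteins that chaperone nicotinic receptors or tune them had a median difference of -0.10 over 12 probe sets, 1 with all SOD1 above all WT values, as for 10.5% of all probe sets, and 1 with all below, as for 9.81%. Ly6h, which encodes a small membrane-anchored protein that restrains nicotinic receptors, read 9.56, 11.31 and 10.99 on SOD1 replicates 1, 2 and 3, against 7.98, 9.23 and 8.24 on WT replicates 1, 2 and 3. All SOD1 values lay above WT, with a difference of 2.14 ± 0.52 (limma, adjusted p = 0.120). Lynx1, a related brake on nicotinic receptors, read 14.73, 14.36 and 14.22 on SOD1 replicates 1, 2 and 3, against 14.93, 15.32 and 15.13 on WT replicates 1, 2 and 3.

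All SOD1 values of this Lynx1 probe set lay below WT, with a difference of -0.69 ± 0.17 (limma, adjusted p = 0.120). Its second probe set gave -0.42 ± 0.15 with overlapping groups. Ric3, a chaperone of nicotinic receptors, gave 0.97 ± 0.51, -0.18 ± 0.52 and 0.18 ± 0.44 with 3 probe sets, and Lypd6b gave 0.79 ± 0.39.

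Genes of choline and acetyl-CoA supply had a median difference of -0.09 over 33 probe sets of 14 genes, with 20 negative and 13 positive estimates. Of the 33, 6 had all SOD1 above all WT values, as for 10.5% of all probe sets, and 3 all below, as for 9.81%. At an unadjusted p under 0.05 (limma), 4 were higher and 2 lower. The choline transporter-like genes Slc44a1 and Slc44a2, which carry choline into cells for membrane synthesis, had opposite signs. Slc44a2 (1438559_x_at) read 13.45, 13.39 and 12.83 on SOD1 replicates 1, 2 and 3, against 13.94, 14.08 and 14.28 on WT replicates 1, 2 and 3. The groups did not overlap, with a difference of -0.87 ± 0.21 (limma, adjusted p = 0.118). Its other probe sets gave -1.18 ± 0.32 and -0.07 ± 0.53.

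Slc44a1 (1433645_at) read 11.74, 12.45 and 12.16 on SOD1 replicates 1, 2 and 3, against 11.20, 11.13 and 11.69 on WT replicates 1, 2 and 3. The groups met without overlapping, with a difference of 0.78 ± 0.28 (limma, adjusted p = 0.245), and a second tested probe set gave 0.31 ± 0.19. Chpt1 and Cept1, enzymes of the last step of phosphatidylcholine synthesis, differed by 0.92 ± 0.26 (limma, adjusted p = 0.159) and 0.43 ± 0.19 (adjusted p = 0.325). The other 3 Chpt1 probe sets gave 0.12, 0.54 and 0.71.

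C-boutons are large cholinergic synapses on motor neurons, faced by M2 receptors and potassium channels. Of 6 genes known from them, 4 had a probe set and 3 were tested. All 3 had negative estimates with overlapping groups. The values were -0.64 ± 0.35 for Kcnn2, a calcium-activated potassium channel gene, -0.83 ± 0.60 for Inmt, a methyltransferase gene, and -0.11 ± 0.26 for Nrg1, which encodes a growth factor (limma, lowest adjusted p = 0.428). Inmt was at background on SOD1 replicate 1.

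**Figure D3:**
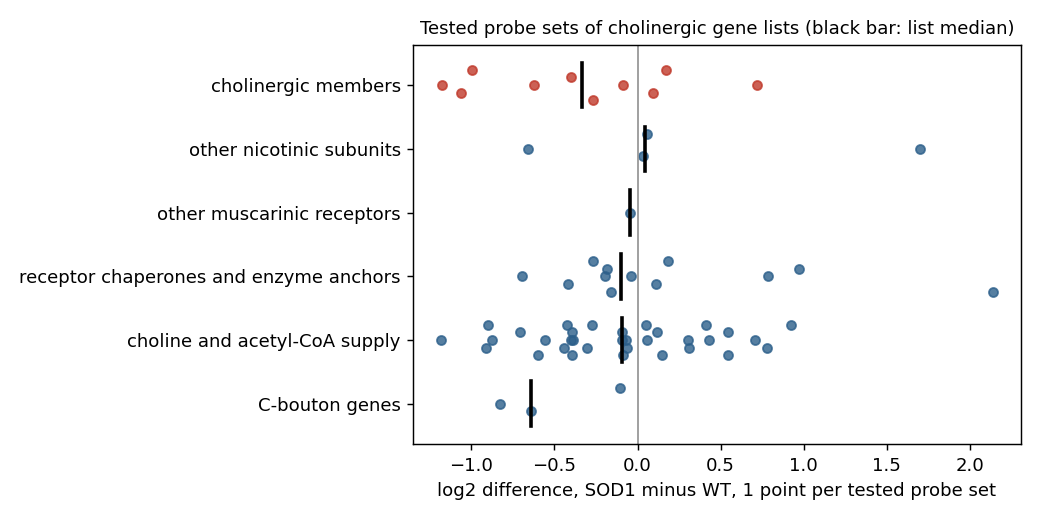
Difference between SOD1 and WT (horizontal axis, log2, SOD1 minus WT) for every tested probe set of the cholinergic set in red and of 5 further cholinergic lists in blue, 1 point per probe set, with the list median as a black bar. The cholinergic set has its median at -0.33, and Ly6h is the point furthest right at 2.14.

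**Figure D4:**
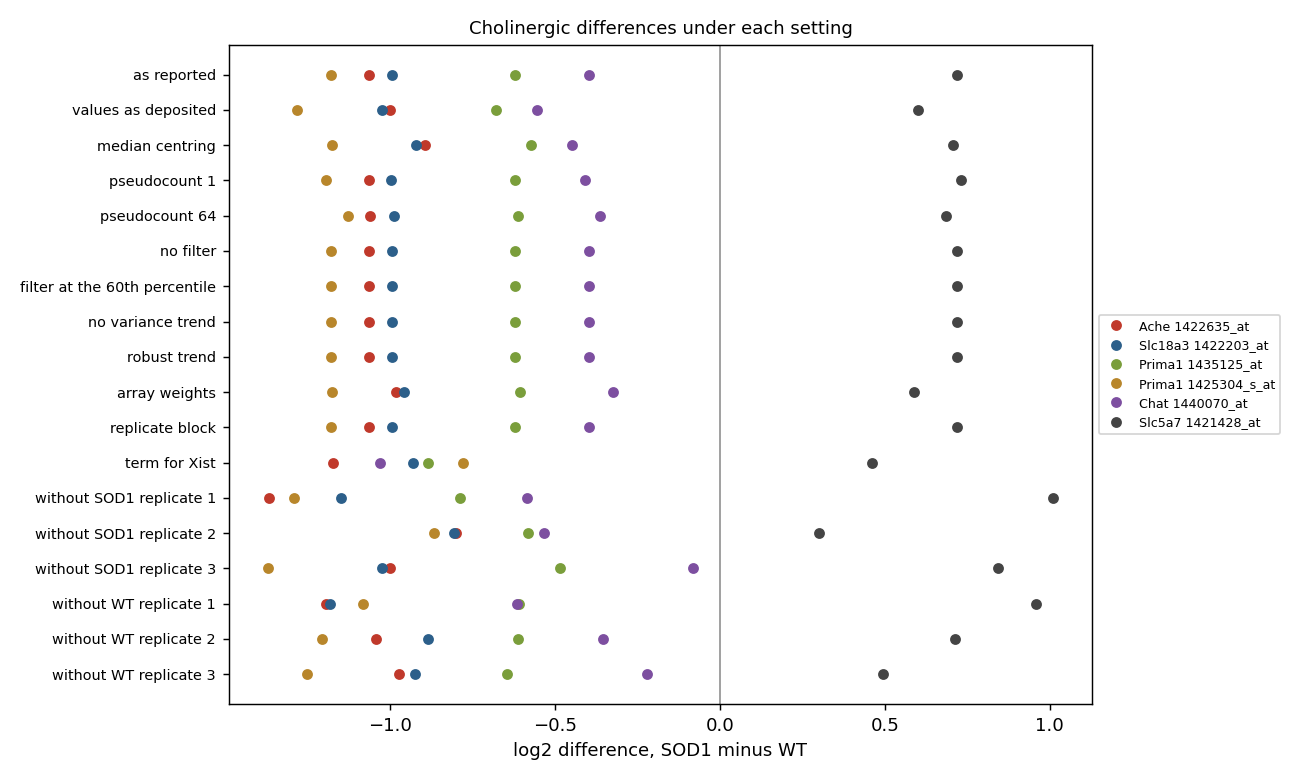
Difference between SOD1 and WT (horizontal axis, log2, SOD1 minus WT) for 6 cholinergic probe sets, each row being a setting of the processing or an array left out. Ache, Slc18a3, both Prima1 probe sets and Chat stay left of 0 and Slc5a7 right of 0 in every row, and Chat spreads from -1.03 to -0.08.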

How the data were processed

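The values the authors deposited are linear signal intensities of probe sets, and the sources used here do not give their algorithm. Per the labels, T7-based amplification was run for 2 rounds, and since it begins at the 3′ end, probe sets far upstream can read low. The 2% trimmed mean was 2500 on every array, so the arrays had been scaled.

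Of 45101 probe sets, 64 controls were left out. Of the rest, 34945 had 1 gene symbol, 932 had several and 9160 were not listed. Symbols were looked up by Entrez identifier in RefSeq (GRCm38.p6), and 0 changed. Promoters are from RefSeq with the same build, and all 10 genes had a window.

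Arrays were quantile normalised, 16 was added and log2 taken. Probe sets whose mean log2 signal exceeded the 40th percentile were fitted with limma 3.58.1 in R 4.3.3 (lmFit, eBayes with a variance trend, two-sided, Benjamini-Hochberg over all 27022). The fit was tested on simulated data with differences larger than that of any cholinergic probe set here. It therefore does not show how often differences of the size reported would be found. Figures used matplotlib 3.10.9. The genes named were all members and, from each further list, up to 4 genes with the smallest p. Their other tested probe sets are given beside them. Members and lists were chosen with earlier results of these data known. The 17 alternatives changed the scaling, the pseudocount, the filter, the variance model, array weighting, a block for the replicate number, a term for arrays with Xist above 10 (log2), or left out 1 array.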

Additional observations from a re-analysis of the deposited data

How the results depend on the processing

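With values as deposited or centred on the median, all 10 cholinergic probe sets stayed uncalled. Counts over all probe sets, 17 higher and 33 lower in SOD1 as reported, were 32 and 55 with a pseudocount of 64, 35 and 71 with the stricter filter (60th percentile), 32 and 68 with array weights and 0 and 0 with no variance trend (3247 at an unadjusted p under 0.05, limma). They were 19 and 22 with median centring, a different split, and 15 and 50 with the term for Xist. With the replicate number as a block they were 36 and 40, and no cholinergic call changed. Deviations of same-numbered arrays from their group means correlated at 0.028, -0.040 and -0.014. This gave no sign that the numbers pair the samples, though 3 arrays per group cannot exclude it. Leaving out 1 array gave 0 to 26 higher and 0 to 53 lower over all probe sets, with 0 and 0 without WT replicate 2 (2659 at an unadjusted p under 0.05), and 0 to 1 cholinergic probe sets lower, the 1 being Ache without SOD1 replicate 1. Of 35 differences of tested probe sets recomputed, 11 turned sign under at least 1 alternative. Chrna4 was at -0.011 as deposited, -0.032 with array weights, -0.30 with the term for Xist and -0.35 to 0.43 with 1 array left out. The dimmer Chrnb2 probe set was at 0.0047 with array weights and -0.34 to 0.21 with 1 array left out. Chrna7 was at -0.023 as deposited and Chrm1 at 0.51 with the term for Xist, and with 1 array left out these ranged from -0.24 to 0.36 and from -0.32 to 0.13. The second Chrna3 probe set was at -0.062 as deposited and -1.61 with the term for Xist, and it ranged from -0.58 to 0.88 with 1 array left out. The Ric3 probe set at -0.18 was at 0.66 with the term for Xist, and with 1 array left out it ranged from -0.60 to 0.39 and the one at 0.18 from -0.029 to 0.40. With 1 array left out Chrna1 ranged from -1.38 to 0.27, Nrg1 from -0.26 to 0.023, the dimmest Chpt1 probe set from -0.24 to 0.48 and the dimmest Slc44a2 probe set from -0.34 to 0.33. The cause was not tested. Under the stricter filter the tested probe sets of Bche and Chrna4 and the dimmer one of Chrnb2 have no value. Ache, Slc18a3 and Prima1 kept their sign in all 17 alternatives.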
